A study of Mus musculus with 15 samples.

Results

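Lung was set against liver in the mice of the PS group, which ate a diet with 2% phytosterols, plant sterols that resemble cholesterol. The comparison joined, by Ensembl gene identifier, the 3 lung and 5 liver libraries of that group, 8 of the 15 libraries of the series. The livers came from mice PS04, PS05, PS09, PS11 and PS15 and the lungs from mice PS04, PS09 and PS15, so 3 mice gave both tissues. The mice were male, wild type and of the inbred strain C57BL/6J, and the PS and CS groups shared all of this apart from the diet. The labels give an age of 28 weeks, but by the methods that span is the time of feeding from the purchase of young mice on, so the mice were older at collection. The CS group, on the control diet and represented by 4 livers and 3 lungs, entered only the test of whether the tissue difference itself differed between diets. Values per library are given in the order PS04, PS05, PS09, PS11 and PS15 for the livers and PS04, PS09 and PS15 for the lungs. Each library came from polyadenylated RNA of a whole piece of frozen tissue, so fewer cells of a type and less RNA per cell cannot be told apart in any of these values.

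A liver cell makes cholesterol from acetyl-CoA along the mevalonate pathway, takes it up in lipoproteins, exports it in new lipoproteins and turns it into bile acids. The pathway is switched by SREBP transcription factors, which SCAP carries to the Golgi for cleavage when membrane sterol is low and which the INSIG proteins hold back in the endoplasmic reticulum when it is high. Lung uses lipid for another purpose: alveolar type II cells secrete surfactant, a film of phospholipid, cholesterol and surfactant proteins. Both organs run a circadian clock, in which CLOCK or NPAS2 with BMAL1 (gene Arntl) drives genes through E-boxes, period and cryptochrome proteins repress this, and REV-ERB, ROR and D-box factors shape the timing of its outputs.

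The livers held 14410117 to 17625179 counts and the lungs 18075831 to 18241817. Levels are given as CPM, counts divided by the library total and set to a common scale, after TMM scaling, which adjusts each library for the few genes that take most of its reads. The 10 top genes took 18.9 to 26.7% of the counts of a liver and 10.6 to 15.2% of those of a lung, and 16207 to 19598 genes had a count in a liver against 22115 to 23297 in a lung. Of 54532 genes in the tables, 16593 passed edgeR's filter on low counts. A gene is called over 2-fold higher or lower in lung where edgeR's quasi-likelihood test against a 2-fold difference gave a Benjamini-Hochberg adjusted p under 0.05 over all genes tested. By this test 4756 genes (28.7%) were over 2-fold higher in lung and 3192 (19.2%) over 2-fold lower, and against no difference 6468 (39.0%) were higher and 5240 (31.6%) lower. The median log2 difference, lung minus liver, over all genes was 0.16 with TMM. Scaling by the total count shifted it by 1.33 toward lung, and the shift was 0.08 with DESeq2's size factors and 0.27 with upper quartile scaling. The same 4756 genes were called higher under all 4 scalings, whereas 1673 (10.1%) were called lower under all of them. Each alternative shifted the differences toward lung, so calls toward lung could hardly be lost and their count is no test of them. The 1673 is the number called lower with total-count scaling. In the following, counts of genes lower in lung are therefore given with TMM and under all 4 scalings. The TMM levels of the tissues did not overlap for 11169 of the 16593 genes tested, so a lack of overlap was common.

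The tissues matched their labels. All 12 liver markers were over 2-fold lower in lung, and their summed level was 149478 to 180588 CPM in the livers and 21.7 to 59.1 CPM in the lungs. All 12 lung markers were over 2-fold higher in lung, with a summed level of 38885 to 59027 CPM in the lungs and 56.5 to 79.2 CPM in the livers, of which Hopx alone made up 47.96 to 56.9 CPM. The lung of PS04 also held more RNA of heart and fat cells. Its 8 heart muscle markers summed to 326 CPM against 25.5 and 53.3 CPM in the lungs of PS09 and PS15, and its 10 fat cell markers to 205 CPM against 87.0 and 100 CPM. Lipe, which the other lungs held as well, made up 96.6, 85.04 and 98.1 CPM of these sums. The other 9 fat cell markers summed to 109 CPM in the lung of PS04 and to 1.98 and 2.21 CPM in those of PS09 and PS15. The fat markers Adipoq and Cfd were at 7.21 and 42.6 CPM in the lung of PS04 and at 0 in both other lungs. The livers differed among themselves along 1 component that held 55.6% of their variance, with PS04 and PS09 on one side (scores 52.8 and 20.2) and PS05, PS11 and PS15 on the other (-20.1, -33.2 and -19.6).

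Among abundant protein-coding genes, those with at least 100 CPM in the higher tissue, the 8 with the largest differences toward lung were Scgb1a1, Sftpc, Cbr2, Cxcl15, Scgb3a2, Sftpb, Rtkn2 and Nkx2-1. Scgb1a1 and Scgb3a2 encode secretoglobins of airway club cells, Sftpb and Sftpc surfactant proteins, and Nkx2-1 a transcription factor of lung epithelium. Scgb1a1 was at 0.321, 0, 0, 0 and 0 CPM in the livers and at 36045, 19122 and 24440 CPM in the lungs. Nkx2-1 had no count in any liver and 121, 162 and 130 CPM in the lungs, at least 2646-fold higher if 3 counts over the 5 livers are taken as the limit. The 8 with the largest differences toward liver were Mup12, Gm21320, Mup17, Dmgdh, Mup7, Ugt2b36, Gulo and Cyp1a2. Gulo, which completes vitamin C synthesis in mice, was at 558, 662, 578, 779 and 801 CPM in the livers and had no count in any lung, at least 21966-fold lower. The major urinary protein genes varied widely among the livers, with Mup12 at 5364, 434, 1385, 2493 and 7000 CPM. Gm21320 ranged even further, from 6.65 to 2193 CPM in the livers, and lost its call without the liver of PS04 (adjusted p = 0.0662) or the lung of PS09 (adjusted p = 0.0501). Major urinary protein genes have near-identical copies, so reads may be split between them.

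The lipid, sterol and clock genes were 226 genes in 16 lists, of which 221 passed the filter. Of the 192 tested lipid and sterol genes, 135 were over 2-fold lower in lung (105 under all 4 scalings) and 24 over 2-fold higher, with a median log2 difference of -3.16 against 0.16 for all genes tested. Of the 29 tested clock genes, 12 were lower (6 under all 4 scalings) and 2 higher, with a median of -0.81 under TMM and 0.52 under total-count scaling. The lipid genes thus lay mostly on the liver side with TMM and with total-count scaling (median -1.83), while the median of the clock genes changed sign between them.

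**Figure D1:**
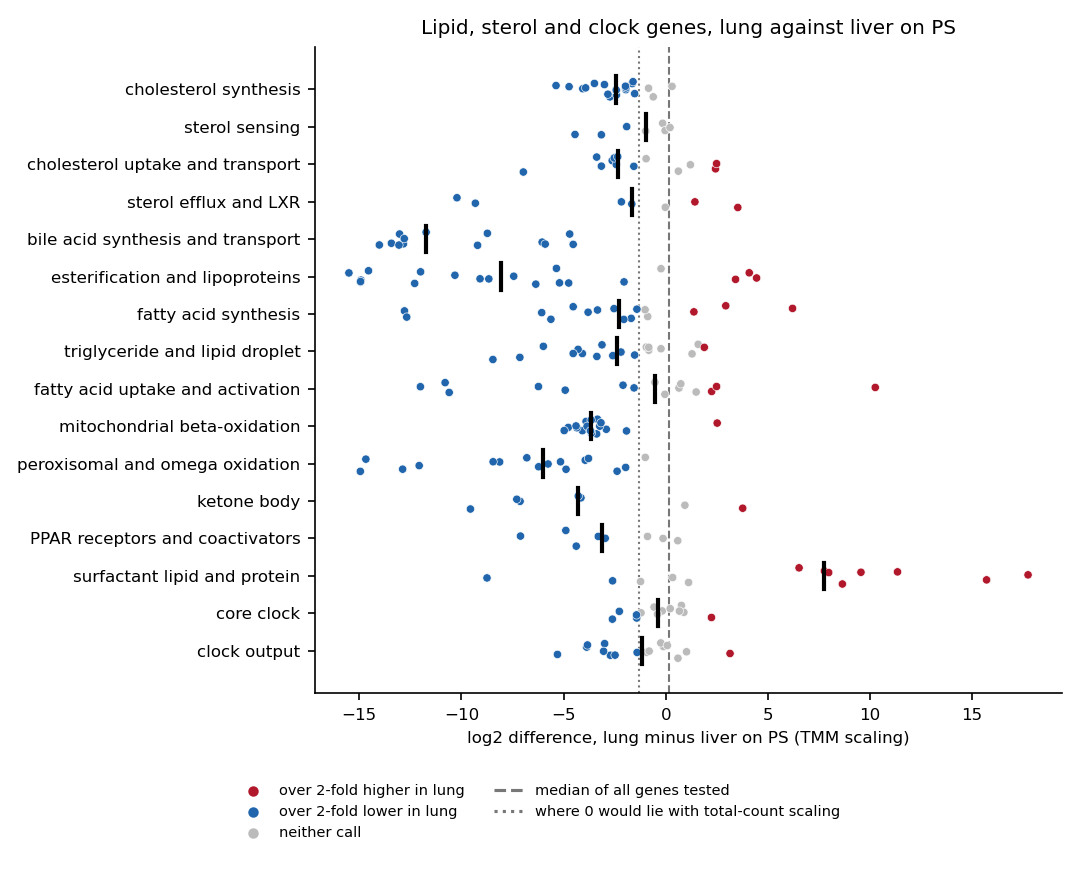
Log2 difference in level, lung minus liver on PS with TMM scaling, for each tested gene of the 16 lists (points, coloured by the test against a 2-fold difference), with each list's median as a black bar. Bile acid genes lie furthest toward liver (median -11.73), surfactant genes furthest toward lung (median 7.77), and the median of the core clock (-0.40) lies between the dashed median of all genes (0.16) and the dotted line, where 0 would lie with total-count scaling.

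Cholesterol synthesis lay on the liver side. Of its 20 enzymes 17 were over 2-fold lower in lung, 8 of them under all 4 scalings, and the median log2 difference was -2.42 (-1.10 with total-count scaling). Hmgcs1, which makes HMG-CoA at the entry to the pathway, was at 356, 230, 289, 161 and 175 CPM in the livers and 38.4, 38.04 and 32.8 CPM in the lungs, a log2 difference of -2.73 ± 0.29 (SE, adjusted p = 2.58e-05). Msmo1, an oxidase that helps remove methyl groups from sterol precursors, was at 116, 81.1, 136, 98.5 and 134 CPM in the livers and 19.3, 16.7 and 11.7 CPM in the lungs (-2.83 ± 0.25, adjusted p = 4.70e-06). The tissues did not overlap for either gene, and the lungs of the 3 mice lay close together. Among the later enzymes Tm7sf2, Ebp and Sc5d differed by -4.73, -3.49 and -3.92 on the log2 scale, whereas Mvk, Pmvk and Mvd, 3 consecutive early enzymes, were the 3 without a 2-fold call (-0.61, 0.31 and -0.84), and with total-count scaling all 3 had positive values (0.73, 1.64 and 0.50).

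Idi1, an isomerase of the isoprenoid units, varied among the livers along the split of their first component. It was low in PS04 and PS09, at 2.78, 12.4, 2.60, 18.9 and 9.43 CPM in the livers and 1.57, 1.07 and 2.56 CPM in the lungs (-2.41 ± 0.64, adjusted p = 0.0179), and on the 3 mice with both tissues its difference missed the 2-fold test, at -1.29 with mouse as a block (adjusted p = 0.231) and -1.46 without it (adjusted p = 0.184). It also missed it with total-count scaling (-1.10, adjusted p = 0.334) and without the lung of PS04 (-2.35, adjusted p = 0.0578) or that of PS09 (-2.15, adjusted p = 0.0730). Idi1 matches the gene Gm13502 without a mismatch over 684 bases and Fdft1 matches Gm6781 at 97.4% over 1249 bases, so reads may be shared between them.

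**Figure D2:**
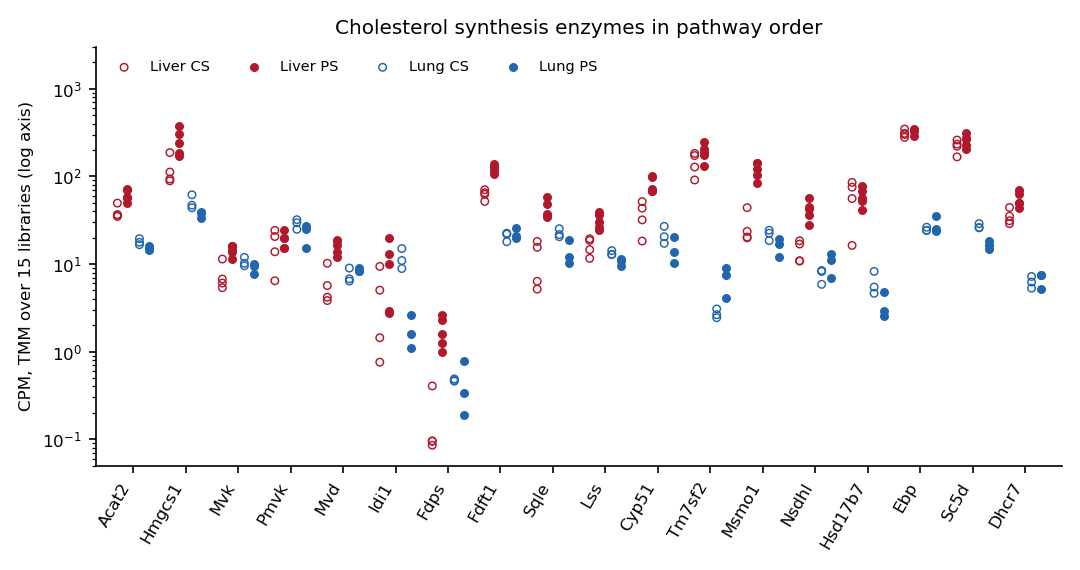
Levels in CPM (log axis, TMM over 15 libraries) of 18 cholesterol synthesis enzymes in pathway order, 1 point per library, open for CS and filled for PS. The filled red liver points lie above the filled blue lung points for all enzymes shown but Pmvk, and for Msmo1 the open red and open blue points lie close together.

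Insig1, which holds the SREBP-SCAP complex in the endoplasmic reticulum, was at 222, 176, 186, 262 and 242 CPM in the livers and 28.3, 20.95 and 24.2 CPM in the lungs, an 8.89-fold lower level in lung (-3.15 ± 0.23, adjusted p = 4.19e-07). Insig2 was at 286, 720, 288, 577 and 501 CPM in the livers and 27.5, 19.9 and 18.2 CPM in the lungs (-4.44 ± 0.39, adjusted p = 1.17e-06). Scap, the escort protein, was 3.77-fold lower in lung (-1.91 ± 0.22, adjusted p = 2.62e-04). It had no 2-fold call with total-count scaling (-0.58, adjusted p = 0.930). Srebf2, whose product chiefly drives cholesterol genes, was at 73.7, 72.2, 71.9, 68.8 and 79.95 CPM in the livers and 69.04, 68.4 and 60.8 CPM in the lungs, and Srebf1 at 98.7, 88.6, 96.3, 73.3 and 95.8 CPM in the livers and 44.4, 43.7 and 49.3 CPM in the lungs. Srebf2 overlapped between tissues and Srebf1 did not, but neither passed the 2-fold test, and with total-count scaling both had positive values (1.18 and 0.36). Mbtps1 and Mbtps2, the proteases that cleave SREBPs, differed by -0.03 and 0.21. A same-strand gene, Yy2, covers 28.4% of the exonic bases of Mbtps2, so its counts are uncertain. In all, 3 of 7 sensors were over 2-fold lower in lung (42.9%, against 19.2% of all genes), 2 of them under all 4 scalings, with a median of -0.98 that became 0.36 with total-count scaling.

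The tissue difference of Insig1 and Msmo1 differed between diets in the edgeR test of the interaction, but not with mouse as a block over 6 mice (adjusted p = 0.454 and 0.271). For this the windows before their starts are shown, with that of Hmgcs1, which stands at the entry to the pathway. They are the 250 bases upstream of the annotated start in RefSeq for GRCm38.p6, which was given for 166 of the 226 genes, written 5′ to 3′ on the gene's strand, with CCAAT (or ATTGG on the other strand), the E-box CACGTG and CACCCCAC, a core of the sterol regulatory element, in capitals. Both strands were searched, and no capital stretch overlaps another. Of 32851 such windows in the genome 33.8% held a CCAAT, 6.02% a CACGTG and 2.58% a CACCCCAC or its reverse complement. The Insig1 window lies at chr5:28071162-28071411 on the plus strand, that of Hmgcs1 at chr13:119690101-119690350 on the plus strand and that of Msmo1 at chr8:64733579-64733828 on the minus strand. These matches are a description of the letters and no evidence of binding.
Insig1: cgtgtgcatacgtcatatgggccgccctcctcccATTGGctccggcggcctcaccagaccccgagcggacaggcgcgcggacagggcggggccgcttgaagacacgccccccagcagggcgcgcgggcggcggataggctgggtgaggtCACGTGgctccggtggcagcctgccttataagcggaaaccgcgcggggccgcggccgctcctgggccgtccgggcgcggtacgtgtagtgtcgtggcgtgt
Hmgcs1: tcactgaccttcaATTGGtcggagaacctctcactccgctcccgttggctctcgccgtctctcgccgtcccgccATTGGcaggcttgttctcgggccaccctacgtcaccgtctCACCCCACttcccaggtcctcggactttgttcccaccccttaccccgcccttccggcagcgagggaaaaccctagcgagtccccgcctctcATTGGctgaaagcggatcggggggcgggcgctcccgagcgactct
Msmo1: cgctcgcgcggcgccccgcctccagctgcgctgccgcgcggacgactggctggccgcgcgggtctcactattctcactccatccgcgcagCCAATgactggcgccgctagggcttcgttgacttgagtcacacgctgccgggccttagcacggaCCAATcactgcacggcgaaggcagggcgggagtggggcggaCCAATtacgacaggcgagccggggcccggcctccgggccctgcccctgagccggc

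Cholesterol uptake and transport lay mostly on the liver side. Of 13 tested genes 8 were over 2-fold lower in lung (61.5%, against 19.2% of all genes, and 4 under all 4 scalings). Only 2 were higher (15.4%, against 28.7% of all genes). Scarb1, which takes up cholesterol from high-density lipoprotein, was at 152, 213, 151, 245 and 216 CPM in the livers and 34.6, 32.1 and 35.5 CPM in the lungs (-2.52 ± 0.23, adjusted p = 8.28e-06). With total-count scaling it had no 2-fold call (-1.20, adjusted p = 0.111). The groups did not overlap. The lysosomal export pair split: Npc1, the membrane protein, was lower in lung (-1.56 ± 0.20, adjusted p = 0.00328, but -0.22 and no 2-fold call with total-count scaling, and none with 10 counts required in every library, adjusted p = 0.0576), while Npc2, its soluble partner, was at 36.5, 118, 63.95, 88.9 and 83.9 CPM in the livers and 471, 306 and 496 CPM in the lungs and higher in lung (2.44 ± 0.31, adjusted p = 2.08e-04). NPC2 is also a secreted protein of alveolar cells. The GRAMD1 proteins, which carry cholesterol from the plasma membrane to the endoplasmic reticulum, split as well: Gramd1b was over 2-fold higher in lung (2.49 ± 0.24, adjusted p = 1.94e-05), Gramd1c over 2-fold lower (-3.38 ± 0.38, adjusted p = 2.24e-05) and Gramd1a had no 2-fold call (1.21 ± 0.25). It gained the call with upper quartile (1.47, adjusted p = 0.0294) and total-count scaling (2.57, adjusted p = 2.44e-05), with 10 counts required in every library (1.47, adjusted p = 0.0423) and without the lung of PS04 (1.43, adjusted p = 0.0398). Npc1l1, the intestinal sterol importer, did not pass the filter, at 0 to 0.0924 CPM in the livers and 0.0334 to 0.291 CPM in the lungs.

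The sterol efflux transporters divided between the organs. Abcg5 and Abcg8, which together form the transporter that excretes plant sterols and cholesterol into bile, were at 139, 85.99, 101, 87.8 and 101 CPM and 79.1, 80.3, 65.7, 88.9 and 93.4 CPM in the livers. In the lungs they were at 0.100, 0.366 and 0 CPM and 0.0667, 0.122 and 0 CPM, log2 differences of -9.32 ± 0.56 (adjusted p = 2.16e-08) and -10.22 ± 0.43 (adjusted p = 9.56e-10). The lung of PS15 had no count of either gene. Abcg1, which exports cholesterol from macrophages and alveolar cells, ran the other way at 1.39, 2.17, 2.68, 3.88 and 5.64 CPM in the livers and 38.4, 42.3 and 28.996 CPM in the lungs, an 11.5-fold higher level in lung (3.53 ± 0.33, adjusted p = 5.46e-06). Abca1 was lower in lung (-1.66 ± 0.22, adjusted p = 0.00259), but on the 3 mice with both tissues it missed the 2-fold test with mouse as a block (-1.34, adjusted p = 0.0509) and passed it without the block (-1.35, adjusted p = 0.0363), and it missed it with total-count scaling (-0.34). Of the 2 liver X receptors, which sense oxysterols and drive these transporters, Nr1h3 (LXRα) was at 147, 172, 173, 138 and 157 CPM in the livers and 29.7, 34.8 and 40.04 CPM in the lungs (-2.17 ± 0.19, adjusted p = 1.24e-05, but -0.83 and no 2-fold call, adjusted p = 0.691, with total-count scaling) and Nr1h2 (LXRβ) overlapped between tissues (-0.02 ± 0.19). Mylip, an LXR target that encodes a ubiquitin ligase, was over 2-fold higher in lung (1.43 ± 0.23, adjusted p = 0.0247), a call that was lost without the liver of PS05 (1.36, adjusted p = 0.0531), that of PS09 (1.32, 0.0562) or the lung of PS15 (1.30, 0.0945).

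By their RefSeq starts Abcg5 and Abcg8 are neighbours that point away from each other. In GENCODE gene models they share 82 exonic bases on opposite strands. The 109 bases between their annotated starts, at chr17:84683012-84683120 on the plus strand of GRCm38.p6 as RefSeq gives them, are shown because both genes, read in opposite directions from this stretch, were on the liver side. Capitals mark TTTATA, the reverse complement of TATAAA, and 12.4% of the 32851 windows held TATAAA on either strand.
Abcg5 to Abcg8: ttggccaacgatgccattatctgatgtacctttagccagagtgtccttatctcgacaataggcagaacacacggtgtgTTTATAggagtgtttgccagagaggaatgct

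Bile acid synthesis and transport was on the liver side throughout. All 13 tested genes were over 2-fold lower in lung under all 4 scalings, with a median log2 difference of -11.73, or -11.20 when Cyp7a1, which had no count in the lungs, is put at its bound. Cyp7a1, the rate-limiting enzyme of the classic pathway, was at 63.1, 72.8, 129, 48.99 and 43.7 CPM in the livers, at least 2346-fold above a limit of 3 counts over the 3 lungs. Cyp8b1, which sets the share of cholic acid, was at 621, 808, 970, 655 and 880 CPM in the livers and 1.77, 1.16 and 2.59 CPM in the lungs (-8.73 ± 0.40, adjusted p = 1.75e-09). Of the enzymes of the alternative pathway, which other organs also use on oxysterols, Cyp27a1 was at 388, 453, 423, 643 and 578 CPM in the livers and 13.3, 24.04 and 27.1 CPM in the lungs and Cyp7b1 at 107, 61.7, 70.6, 219 and 233 CPM in the livers and 3.003, 2.01 and 1.25 CPM in the lungs. Cyp7b1 varied among the livers, with PS11 and PS15 high. The transporters Slc10a1 and Abcb11, which take up and secrete bile salts, were at 948 to 1411 and 417 to 543 CPM in the livers and at 0.0334 to 0.204 and 0 to 0.0334 CPM in the lungs. The bile acid receptor Nr1h4 (FXR) was 156 to 314 CPM in the livers and 0.146 to 0.610 CPM in the lungs. Hsd3b7 did not pass the filter, at 0 to 0.562 CPM in the livers and 0 to 0.0610 CPM in the lungs, and it shares 62.0% of its exonic bases with Gm49388 on the same strand, so its counts are uncertain.

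The window before Cyp8b1 is shown as that of an abundant liver gene of this list. It lies at chr9:121916306-121916555 on the minus strand, with CAAAGTCCA, letters found in HNF4A sites, 67 bases and TATAAA 31 bases before the start, in capitals. Of the 32851 windows, 0.384% held CAAAGTCCA on either strand and 12.4% TATAAA. Hnf4a itself, a transcription factor of hepatocytes, was at 707, 653, 549, 953 and 761 CPM in the livers and 0.100, 0.0305 and 0.0291 CPM in the lungs.
Cyp8b1: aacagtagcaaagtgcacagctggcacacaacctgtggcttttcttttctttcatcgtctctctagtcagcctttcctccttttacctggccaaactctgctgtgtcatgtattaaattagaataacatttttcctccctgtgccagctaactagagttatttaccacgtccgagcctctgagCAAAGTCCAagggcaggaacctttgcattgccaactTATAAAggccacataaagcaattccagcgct

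Esterification divided between the sterol O-acyltransferases, which store cholesterol as esters. Soat2, the hepatocyte form, was at 70.6, 58.3, 70.9, 41.4 and 45.1 CPM in the livers and 1.10, 1.74 and 1.34 CPM in the lungs (-5.35 ± 0.30, adjusted p = 1.36e-08). Soat1, the form of macrophages and most other cells, was at 2.03, 2.73, 2.19, 3.73 and 4.44 CPM in the livers and 53.99, 50.7 and 50.1 CPM in the lungs (4.09 ± 0.24, adjusted p = 4.48e-08). Per kilobase of gene length in the tables, Soat2 in the livers (25.9 ± 6.24 CPM per kb, SD, n = 5) exceeded Soat1 in the lungs (5.27 ± 0.215 CPM per kb, SD, n = 3). The apolipoproteins of the list were lower in lung by far: Apoa1 was at 26915, 17907, 23589, 11017 and 18999 CPM in the livers and 0.400, 1.10 and 0.379 CPM in the lungs and Apob at 3943, 6378, 3986, 6775 and 5560 CPM in the livers and 1.13, 0.885 and 1.87 CPM in the lungs. Apoe had the highest lung level of the list, 444 to 515 CPM against 28960 to 48150 CPM in the livers, an 82.3-fold difference. Of the 20 genes of esterification and lipoproteins 16 were over 2-fold lower in lung (15 under all 4 scalings) and 3 over 2-fold higher, with a median log2 difference of -8.05.

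The 3 genes higher in lung were Soat1, Lpl and Gpihbp1. Lpl, the lipase that releases fatty acids from circulating triglyceride, was at 18.5, 10.9, 7.87, 10.1 and 15.7 CPM in the livers and 332, 293 and 203 CPM in the lungs, 21.9-fold higher (4.45 ± 0.28, adjusted p = 6.80e-08). Gpihbp1, which anchors that lipase to capillaries, was at 14.2, 11.96, 6.74, 13.6 and 12.5 CPM in the livers and 138, 96.6 and 143 CPM in the lungs (3.42 ± 0.24, adjusted p = 3.18e-07). Lipc, the hepatic lipase of the same family, was at 177, 183, 195, 239 and 228 CPM in the livers and 0.100, 0.153 and 0.204 CPM in the lungs, and the endothelial lipase Lipg overlapped between tissues (-0.23 ± 0.37).

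Of 16 fatty acid synthesis genes 11 were over 2-fold lower in lung (68.8%, against 19.2% of all genes, and 7 under all 4 scalings). Another 3 were higher (18.8%, against 28.7% of all genes). Fasn, the fatty acid synthase, was at 265, 255, 227, 194 and 254 CPM in the livers and 119, 90.6 and 60.4 CPM in the lungs, 2.66-fold lower in lung (-1.41 ± 0.24, adjusted p = 0.0286), but with no call under any of the other 3 scalings (-1.33, adjusted p = 0.0560, with DESeq2's size factors, -1.15, 0.186, with upper quartile and -0.09 with total-count scaling), with no filter (adjusted p = 0.0760) or with 10 counts required in every library (0.241). The call of Fasn was also lost without the lung of PS09 (-1.41, adjusted p = 0.0536) or that of PS15 (-1.19, adjusted p = 0.143). Acly and Acaca, which supply its substrates, had no 2-fold call (-0.88 ± 0.22 and -1.01 ± 0.16). Stearoyl-CoA desaturases, which make oleate, differed in opposite directions. Scd1 was at 11012, 21198, 9629, 14593 and 12153 CPM in the livers and 394, 267 and 174 CPM in the lungs (49.3-fold lower in lung, -5.62 ± 0.45, adjusted p = 4.14e-07). Scd2 was at 1.71, 3.45, 2.60, 4.52 and 4.25 CPM in the livers and 264, 206 and 271 CPM in the lungs (74.02-fold higher in lung, 6.21 ± 0.28, adjusted p = 2.00e-09). The transcripts of these genes match at 95.5% over 623 bases, so a small part of the reads may be shared. The elongases split too, with Elovl2, Elovl3, Elovl5 and Elovl6 over 2-fold lower in lung and Elovl1 and Elovl7 over 2-fold higher. Elovl5 lost its call with total-count scaling (-1.20, adjusted p = 0.0981). Elovl2, which lengthens polyunsaturated fatty acids, was at 425, 798, 646, 854 and 798 CPM in the livers and 0.0667, 0.183 and 0.0291 CPM in the lungs, and Elovl1, which makes very long saturated chains, at 35.5, 45.4, 48.8, 37.1 and 47.5 CPM in the livers and 108, 127 and 98.1 CPM in the lungs. Without the lung of PS09 Elovl1 lost its call (1.27, adjusted p = 0.0691). Fads1 and Fads2, the desaturases of polyunsaturated fatty acids, were 10.1-fold and 67.004-fold lower in lung.

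Triglyceride synthesis and droplet genes followed the liver, with 11 of 18 over 2-fold lower in lung (8 under all 4 scalings) and 1 higher. Dgat2, which makes most liver triglyceride, was at 550, 799, 744, 716 and 821 CPM in the livers and 8.54, 2.99 and 3.96 CPM in the lungs (-7.14 ± 0.43, adjusted p = 2.17e-08), while Dgat1 had no 2-fold call (-0.83 ± 0.18, and 0.52 with total-count scaling). Plin2, which coats droplets, was at 383, 1250, 468, 856 and 620 CPM in the livers and 73.3, 62.2 and 72.7 CPM in the lungs, highest in the liver of PS05. Plin3 overlapped between tissues (-0.23 ± 0.19). Lipe, the hormone-sensitive lipase, was the 1 gene of the list over 2-fold higher in lung, at 29.5, 22.1, 23.3, 21.1 and 29.9 CPM in the livers and 96.6, 85.04 and 98.1 CPM in the lungs (1.89 ± 0.17, adjusted p = 7.73e-05). Without the lung of PS04, the one with more fat cell RNA, Lipe differed by 1.87.

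Of 15 tested fatty acid uptake genes 7 were over 2-fold lower in lung (5 under all 4 scalings) and 3 higher (20%, against 28.7% of all genes), with a median of -0.53 that became 0.80 with total-count scaling. Fabp1, the liver fatty acid binding protein, was at 6482, 6436, 6062, 3006 and 3864 CPM in the livers and 1.97, 5.15 and 1.57 CPM in the lungs (-10.80 ± 0.65, adjusted p = 2.02e-08). Fabp3, the heart form, had no count in any liver and was at 16.8, 3.29 and 3.73 CPM in the lungs, at least 146-fold higher, though it matches Fabp3-ps1 at 99.3% over 402 bases. Fabp4, the fat cell form, was at 4.07, 6.74, 7.87, 4.99 and 7.67 CPM in the livers and 72.5, 13.2 and 4.17 CPM in the lungs, and its call of over 2-fold higher (2.25 ± 0.68, adjusted p = 0.0436) was lost without any 1 of the 5 livers (adjusted p 0.0652 to 0.160) and without the lung of PS04: without that lung the log2 difference was 0.47 (adjusted p = 0.906), and on the 3 mice with both tissues it was 1.28 with mouse as a block (adjusted p = 0.520) and 2.21 without it (adjusted p = 0.204). The lung of PS04 is the library with more heart and fat cell RNA, and the part of that RNA in the values of Fabp3 and Fabp4 was not tested. Cd36, a fatty acid receptor, was at 117, 375, 199, 106 and 72.4 CPM in the livers and 672, 416 and 374 CPM in the lungs. It overlapped between tissues and missed the 2-fold test (1.49 ± 0.44, adjusted p = 0.101), but passed it on the 3 mice with both tissues, each with more in lung, whether mouse was a block (2.05, adjusted p = 0.00310) or not (1.97, adjusted p = 0.00779), and without the liver of PS05 (1.97, adjusted p = 0.00443). The transport proteins Slc27a2 and Slc27a5 were lower in lung (-10.60 and -13.03) and Slc27a3 higher (2.49). Acsl1, which activates fatty acids, was 74.9-fold lower in lung.

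**Figure D3:**
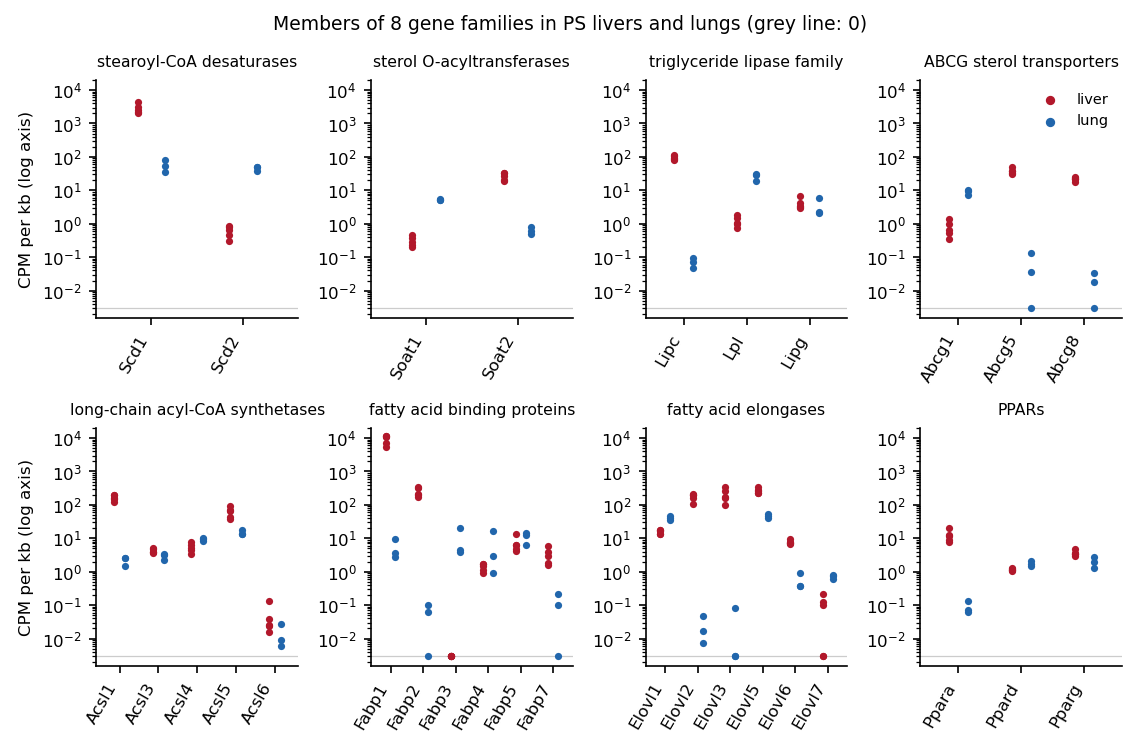
Level in CPM per kilobase of gene length (log axis, grey line for 0) of the members of 8 gene families, 1 point per PS library. Soat2 and Soat1, Lipc and Lpl, and Abcg5 or Abcg8 and Abcg1 change places between liver and lung, whereas Scd1 lies above Scd2 in the lungs of PS04 and PS09 and below it in that of PS15. Fabp3 has no count in the 5 livers.

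Mitochondrial beta-oxidation was almost wholly on the liver side, with 18 of 19 tested genes over 2-fold lower in lung (17 under all 4 scalings) and a median of -3.65 (-2.31 with total-count scaling). Cpt1a, the liver form of the carnitine transferase that admits fatty acids to mitochondria, was at 451, 791, 588, 731 and 710 CPM in the livers and 81.4, 64.3 and 71.8 CPM in the lungs (-3.17 ± 0.26, adjusted p = 1.32e-06). Acadm, the medium-chain dehydrogenase, was at 542, 1037, 787, 772 and 719 CPM in the livers and 60.3, 56.2 and 59.9 CPM in the lungs (-3.71 ± 0.27, adjusted p = 2.72e-07). Acadl, the long-chain form that mouse type II cells also use, differed least (-1.92 ± 0.22, adjusted p = 3.07e-04, and -0.59 without a 2-fold call with total-count scaling). Acadvl, the very-long-chain form, ranged widely among livers, at 34.2, 218, 49.3, 221 and 166 CPM in the livers and 5.77, 6.01 and 12.6 CPM in the lungs, low in PS04 and PS09 as Idi1 was. An opposite-strand gene, Dvl2, covers 42.9% of the exonic bases of Acadvl, so these counts are uncertain. Cpt1c, the form of brain, was the 1 gene higher in lung (3.53, 0.241, 0.893, 0.317 and 0.277 CPM in the livers and 3.50, 6.34 and 7.58 CPM in the lungs). The liver of PS04 reached the lung range for Cpt1c, and the call was lost on the 3 mice with both tissues, with mouse as a block (2.31, adjusted p = 0.0611) or not (2.02, adjusted p = 0.0697), and without the lung of PS09 (2.46, adjusted p = 0.0522) or of PS15 (2.29, adjusted p = 0.0770).

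Peroxisomal and omega oxidation had the lowest median of the oxidation lists, with 15 of 16 genes over 2-fold lower in lung (13 under all 4 scalings) and a median of -5.99. Cyp4a10 and Cyp4a14, omega-hydroxylases that PPARα controls, were at 2406, 2880, 2770, 2589 and 2246 CPM and 1108, 4796, 2644, 1948 and 1813 CPM in the livers. In the lungs they were at 0, 0.122 and 0.146 CPM and 0, 0.0305 and 0.175 CPM. Cyp4a10 matches Cyp4a31 and Cyp4a32 at 96.1% and 97.2%, so reads may be split among them.

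Most ketone body genes were on the liver side and Oxct1 was on the lung side. Bdh1, which converts acetoacetate to beta-hydroxybutyrate and back, was at 273, 439, 300, 289 and 312 CPM in the livers and 3.44, 1.16 and 1.60 CPM in the lungs, 156-fold lower in lung (-7.29 ± 0.43, adjusted p = 1.70e-08). Oxct1, needed to oxidise ketone bodies and little expressed by hepatocytes, was at 1.93, 3.05, 1.79, 3.33 and 4.34 CPM in the livers and 45.8, 38.1 and 34.8 CPM in the lungs (13.6-fold higher in lung, 3.77 ± 0.27, adjusted p = 2.93e-07). Pdk4, a fasting gene that blocks pyruvate oxidation, had no 2-fold call (0.94 ± 0.38) but passed on the 3 mice with both tissues, with mouse as a block (1.78, adjusted p = 0.00524) and without it (1.78, adjusted p = 0.00295). Of 7 genes 5 were lower under all 4 scalings and 1 higher.

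Of the PPAR receptors, which fatty acids bind, Ppara followed the oxidation genes. It was at 33.5, 48.7, 30.3, 78.8 and 45.8 CPM in the livers and 0.234, 0.275 and 0.495 CPM in the lungs, 138-fold lower in lung (-7.11 ± 0.45, adjusted p = 3.46e-08). Pparg did not overlap between tissues but missed the 2-fold test (-0.89 ± 0.28, and 0.44 with total-count scaling), and Ppard was at 9.52, 8.35, 9.33, 7.69 and 8.50 CPM in the livers and 11.2, 15.2 and 12.6 CPM in the lungs (0.59 ± 0.20, no 2-fold call, and 1.93 with a call with total-count scaling). Rxra, their partner, was 9.82-fold lower in lung, while Rxrb overlapped between tissues (-0.13 ± 0.17). Of 8 receptors and coactivators 5 were over 2-fold lower in lung under all 4 scalings.

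The list of surfactant lipid and protein genes lay on the lung side, with a median of 7.77. Of its 13 genes 8 were over 2-fold higher in lung under all 4 scalings and 2 lower (1 under all 4 scalings). Of the 8, Lpcat1 encodes a lipid enzyme. The others were Sftpa1, Sftpb, Sftpc, Sftpd, Napsa, Slc34a2 and Lamp3. The list's further lipid genes, Pemt, Chpt1, Pcyt1a, Chka and Abca3, were not over 2-fold higher with TMM. The list's median is thus no measure of lipid synthesis in lung. Sftpc, the most abundant surfactant protein gene, was at 15141, 14782 and 8611 CPM in the lungs and at 0 to 0.162 CPM in the livers. Sftpa1 was at 1.71, 1.93, 3.17, 3.01 and 1.39 CPM in the livers and 2175, 1834 and 1123 CPM in the lungs, with the lung of PS15 lowest for both genes. Lpcat1, which remodels phosphatidylcholine for surfactant, was at 2.03, 2.01, 1.95, 1.27 and 1.48 CPM in the livers and 184, 153 and 147 CPM in the lungs (6.53 ± 0.21, adjusted p = 2.66e-10). Of the enzymes that make phosphatidylcholine, Pemt, of the methylation route, was at 456, 493, 440, 370 and 425 CPM in the livers and 1.27, 0.885 and 0.874 CPM in the lungs (-8.75 ± 0.30, adjusted p = 2.82e-10). Chpt1 and Pcyt1a of the choline route were lower (-2.60 ± 0.24, over 2-fold, but -1.28 and no call, adjusted p = 0.0578, with total-count scaling) and without a 2-fold call (-1.23 ± 0.36, 0.09 with total-count scaling, and -1.42 with a call, adjusted p = 0.0422, without the liver of PS04). Abca3, which loads surfactant lipid into lamellar bodies, was at 12.7, 34.8, 13.6, 40.6 and 19.7 CPM in the livers and 34.9, 46.3 and 77.9 CPM in the lungs. The liver of PS11 was above the lung of PS04, and Abca3 missed the 2-fold test (1.12 ± 0.38, adjusted p = 0.295) but passed it on the 3 mice with both tissues, a fit without the livers of PS05 and PS11, with mouse as a block (1.80, adjusted p = 0.00179) and without it (1.85, adjusted p = 0.00711).

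Of 13 tested core clock genes 4 were over 2-fold lower in lung (30.8%, against 19.2% of all genes) and 1 higher (7.69%, against 28.7% of all genes), and 0 of the 4 kept the call with total-count scaling, where the median went from -0.40 to 0.94. Among the 4 were the repressors Nr1d1 and Nr1d2 (REV-ERBα and β) and the activator Rora. Nr1d1 was at 123, 108, 102, 116 and 153 CPM in the livers and 14.01, 28.9 and 31.6 CPM in the lungs (-2.27 ± 0.27, adjusted p = 1.43e-04, and -0.91 with total-count scaling). Nr1d2 and Rora differed by -1.42 ± 0.20 and -1.43 ± 0.21 (-0.08 and -0.12 with total-count scaling), and both lost the call with upper quartile scaling (adjusted p = 0.159 and 0.145), with no filter (0.0580 and 0.0525) and with 10 counts required in every library (0.202 and 0.190). Rora also lost it on the 3 mice with both tissues, with mouse as a block (-1.22, adjusted p = 0.145) or not (-1.25, adjusted p = 0.105), and without the lung of PS15 (-1.34, adjusted p = 0.0589). Nr1d2 lost it without the lung of PS04 (-1.33, adjusted p = 0.0549). With TMM the groups did not overlap for these genes, as for 11169 of the 16593 genes tested. Npas2, the stand-in for CLOCK, was the 1 gene over 2-fold higher in lung, at 2.46, 2.49, 1.62, 1.43 and 0.924 CPM in the livers and 7.84, 9.61 and 7.87 CPM in the lungs (2.24 ± 0.34, adjusted p = 9.38e-04). Clock overlapped (-0.17 ± 0.21), as did the cryptochromes Cry1 and Cry2 (0.22 ± 0.23 and -0.40 ± 0.22). Cry1 was called 2-fold higher in lung with total-count scaling (1.53). Rorb had no count in the livers and 0.175 to 0.427 CPM in the lungs and did not pass the filter.

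Of the 16 clock output and regulator genes 8 were over 2-fold lower in lung (50.0%, against 19.2% of all genes, and 6 under all 4 scalings). Only 1 was higher (6.25%, against 28.7% of all genes), and the median was -1.17 (0.17 with total-count scaling). Dbp, which acts on D-boxes, was at 149, 40.1, 127, 53.5 and 156 CPM in the livers and 1.67, 2.96 and 3.32 CPM in the lungs, 39.5-fold lower (-5.30 ± 0.55, adjusted p = 5.98e-06). An opposite-strand gene, Sphk2, covers 18% of its exonic bases. Of its relatives, Hlf was lower too (-3.87 ± 0.20, adjusted p = 1.22e-08), whereas Tef overlapped and had no 2-fold call (-0.94 ± 0.28, and 0.42 with total-count scaling). Nfil3, which competes for the same D-boxes, was at 40.2, 52.6, 44.4, 52.6 and 43.5 CPM in the livers and 6.84, 6.59 and 8.01 CPM in the lungs (-2.71 ± 0.19, adjusted p = 6.44e-07). Bhlhe40, a repressor at E-boxes that other signals also induce, was at 114, 65.3, 73.8, 145 and 115 CPM in the livers and 14.7, 11.2 and 12.7 CPM in the lungs (-2.99 ± 0.29, adjusted p = 8.00e-06). Csnk1e, a kinase of the period proteins, was the 1 gene of this list over 2-fold higher in lung, at 5.13, 6.50, 9.17, 5.63 and 6.01 CPM in the livers and 60.3, 54.96 and 58.3 CPM in the lungs (3.15 ± 0.20, adjusted p = 1.81e-07), while its relative Csnk1d overlapped (0.08 ± 0.21, and 1.42 with a 2-fold call with total-count scaling).

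Per2, Per3 and Ciart put the mice in a different order in liver and in lung. Per2 was at 77.2, 23.2, 70.6, 36.4 and 39.1 CPM in the livers and 13.01, 22.8 and 28.2 CPM in the lungs (-1.21 ± 0.38, adjusted p = 0.218), and Per3 at 32.9, 5.62, 27.3, 12.5 and 18.3 CPM in the livers and 8.94, 12.3 and 17.7 CPM in the lungs (-0.57 ± 0.45). Ciart, a clock repressor with a strong daily rhythm, was at 27.2, 7.23, 26.7, 5.94 and 16.6 CPM in the livers and 4.14, 15.3 and 26.8 CPM in the lungs (-0.11 ± 0.60). For Per2, Per3 and Ciart the liver of PS04 was the highest liver and the lung of PS04 the lowest of the lungs. The livers of PS04 and PS09, on the same side of the livers' first component, were above all other livers for these genes. The livers of PS05 and PS11, the mice without a lung library, were the lowest livers for Per2, Per3, Dbp, Tef and Ciart. With the 3 mice of both tissues and mouse as a block, the difference was -1.50 for Per2 (adjusted p = 0.0594), -0.97 for Per3, -0.84 for Ciart and 1.22 for Arntl, none past the 2-fold test. The time of day of tissue collection is not given in the sources used here.

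The windows before Ciart and Per3 are shown because these rhythmic genes carry clock motifs and overlapped between tissues. The Ciart window lies at chr3:95882229-95882478 on the minus strand with 3 E-boxes CACGTG 116, 58 and 44 bases before the start, and the Per3 window at chr4:151044666-151044915 on the minus strand with 2 D-boxes TTATGTAA 205 and 158 bases before the start. The capitals mark these motifs only. Of the 32851 windows 6.02% held CACGTG and 0.819% TTATGTAA on either strand. Ciart has a near copy, Gm9176, that matches its transcript at 96.7% over 1126 bases, so some of its reads may come from there.
Ciart: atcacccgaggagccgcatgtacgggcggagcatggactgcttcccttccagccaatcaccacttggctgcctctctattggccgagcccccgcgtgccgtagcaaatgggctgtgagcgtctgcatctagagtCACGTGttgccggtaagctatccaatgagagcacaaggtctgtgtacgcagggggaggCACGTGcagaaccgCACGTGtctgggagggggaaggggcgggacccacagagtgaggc
Per3: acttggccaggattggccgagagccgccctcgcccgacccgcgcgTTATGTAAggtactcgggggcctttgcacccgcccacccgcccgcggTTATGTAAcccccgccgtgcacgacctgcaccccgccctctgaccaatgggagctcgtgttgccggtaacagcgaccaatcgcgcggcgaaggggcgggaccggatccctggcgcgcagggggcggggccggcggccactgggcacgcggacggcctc

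**Figure D4:**
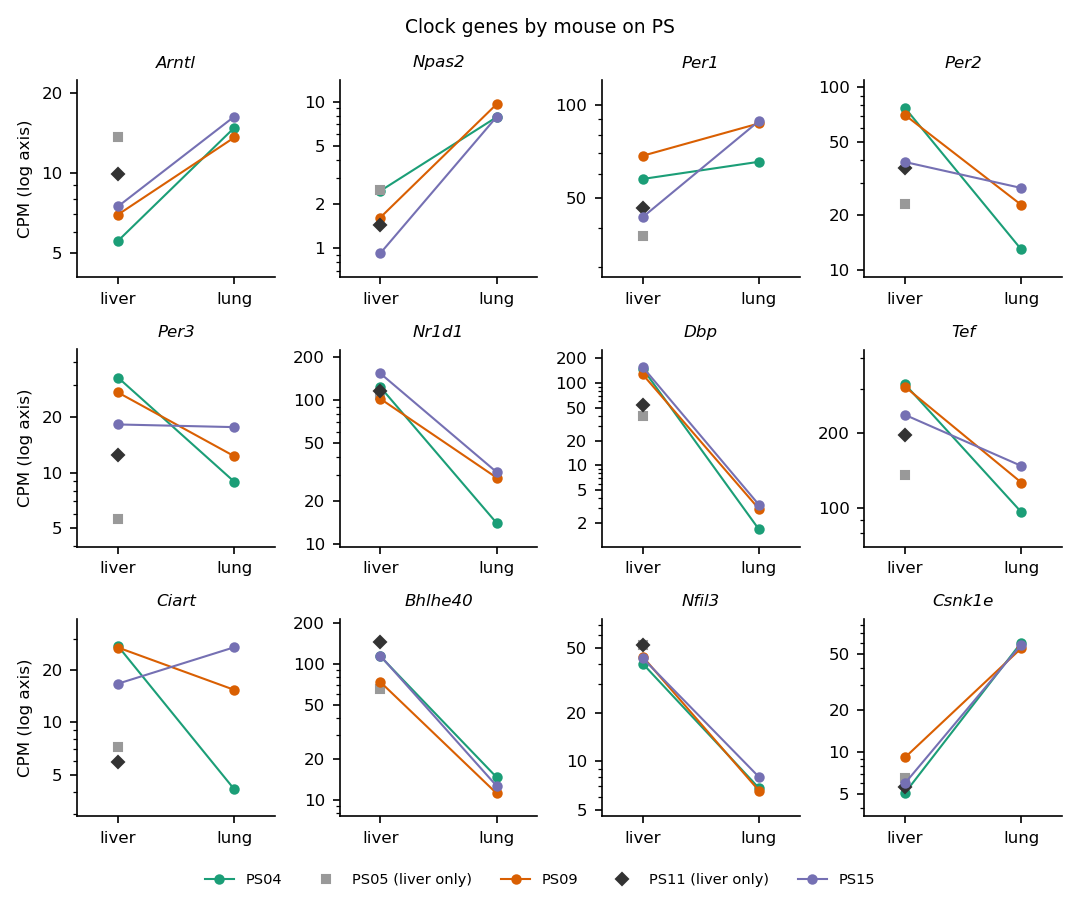
Level in CPM (log axis) of 12 clock genes in the PS livers and lungs, with a line for each mouse that gave both tissues and a lone symbol for PS05 and PS11. All 3 lines fall for Nr1d1, Dbp, Bhlhe40 and Nfil3 and rise for Arntl, Npas2, Per1 and Csnk1e, while those of Ciart cross.

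The tissue difference on PS was then set against that on CS over all 15 libraries. Of 17696 genes tested, 1 (0.00565%) had a more positive lung minus liver difference on PS and 3 (0.0170%) a more negative one at an adjusted p under 0.05, and 980 (5.54%) and 955 (5.40%) at an unadjusted p under 0.05. With DESeq2's Wald test the counts at an adjusted p under 0.05 were 94 and 139. The 4 genes called with edgeR were Insig1, Msmo1, 1810008I18Rik and Adck5. Levels in the next sentences are CPM after TMM scaling over the 15 libraries, with the CS group first. Insig1 was at 78.7, 81.4, 122 and 78.96 CPM in CS livers, 233, 185, 196, 277 and 257 CPM in PS livers, 41.8, 35.04 and 38.9 CPM in CS lungs and 28.6, 21.4 and 24.7 CPM in PS lungs. All PS livers were above all CS livers and all PS lungs below all CS lungs, and the tissue difference changed by -1.98 ± 0.29 on the log2 scale (SE, adjusted p = 0.0296). Msmo1 was at 23.6, 19.9, 43.97 and 20.3 CPM in CS livers, 122, 85.2, 143, 104 and 142 CPM in PS livers, 24.3, 18.5 and 22.5 CPM in CS lungs and 19.4, 17.03 and 11.9 CPM in PS lungs. Its tissue difference was -0.33 ± 0.30 on CS and changed by -2.58 ± 0.39 (adjusted p = 0.0296), and the ranges of the tissues overlapped on CS and did not on PS.

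Most of the sterol pathway leaned the same way as Insig1 and Msmo1 without passing the adjustment. Of the 20 cholesterol synthesis enzymes 18 had a more negative tissue difference on PS, 14 of them at an unadjusted p under 0.05, where 5.40% of all genes stood, and the median change was -1.19 against 0.00 for all genes. The 2 with a more positive difference were Tm7sf2 (0.94 ± 0.40, unadjusted p = 0.0297) and Ebp (0.09 ± 0.25). Sqle, the epoxidase that starts the sterol branch, changed by -2.65 ± 0.50 (adjusted p = 0.128) and Hmgcs1 by -1.54 ± 0.41 (adjusted p = 0.245). Among uptake and transport genes Stard4, which moves cholesterol between membranes, changed by -1.69 ± 0.40 (adjusted p = 0.196). Bile acid genes had a median change of 0.18, with 6 negative and 7 positive. Clock genes were more negative on PS in 25 of 30 (8822 of 17696 for all genes), 4 of them at an unadjusted p under 0.05, and more positive in 5, 2 of them at that p. The CS02 liver stood apart from the other CS livers on some of these genes, with Dbp at 37.4 CPM against 1.22 to 6.49, Per2 at 36.8 against 5.20 to 11.3 and Per3 at 17.9 against 1.14 to 2.82 CPM. Without that liver 23 of 30 clock genes were more negative, 12 of them at an unadjusted p under 0.05 (5.51% of all genes), and 7 more positive, 2 of them at that p. With any other library left out, 3 to 5 clock genes were more negative at an unadjusted p under 0.05. The counts of the cholesterol synthesis enzymes were 18 and 14 without the CS02 liver too. Bhlhe40 changed by -2.08 ± 0.41 (adjusted p = 0.141), while Npas2 changed by 1.65 ± 0.50 and Arntl by 1.14 ± 0.38 (adjusted p = 0.315 and 0.341). Chka, the choline kinase of the surfactant list, changed by 2.10 ± 0.42 (adjusted p = 0.141). A p that misses the threshold does not show that the tissue difference was alike on both diets.

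1810008I18Rik and Adck5 belong to none of the lists. 1810008I18Rik, a long noncoding RNA on chromosome 7 from 65803111 to 65806449, lies outside the rule for named genes, which took protein-coding genes, and was named after its values were seen. It was at 2.01, 2.40 and 2.58 CPM in CS lungs and 0.539, 0.218 and 0.476 CPM in PS lungs, and at 26.5, 24.4, 30.2 and 27.8 CPM in CS livers and 44.9, 28.7, 31.5, 31.5 and 26.8 CPM in PS livers, a change of -2.75 ± 0.36 (adjusted p = 0.0136). Adck5, a gene of a family of atypical mitochondrial kinases, was at 5.89, 6.86 and 6.44 CPM in CS lungs and 10.3, 17.9 and 15.9 CPM in PS lungs, and at 57.3, 69.2, 52.3 and 87.7 CPM in CS livers and 47.02, 42.01, 43.1, 31.9 and 30.4 CPM in PS livers. Its change of 1.98 ± 0.32 (adjusted p = 0.0498) was the 1 called toward lung. With each of the 15 libraries left out in turn, the changes of Insig1 and Msmo1 stayed between -2.16 and -1.88 and between -2.92 and -2.40. Their adjusted p passed 0.05 in 10 and 11 of the 15 cases, reaching 0.187 and 0.203, and the calls were kept without the livers of CS02, CS04 or PS05 or the lung of PS04, and for Insig1 also without the liver of PS09. Adck5 kept its call in 3 of 15 cases (without the livers of CS02 or CS04 or the lung of PS04) and 1810008I18Rik in 12, losing it without the lungs of CS02 (adjusted p = 0.0556), CS04 (0.0718) or PS15 (0.0639). None of the 4 genes passed with mouse as a block over the 6 mice that gave both tissues, a fit that also leaves out the livers of PS05, PS11 and CS09, where 0 genes were called at an adjusted p under 0.05 and 979 stood at an unadjusted p under 0.05.

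**Figure D5:**
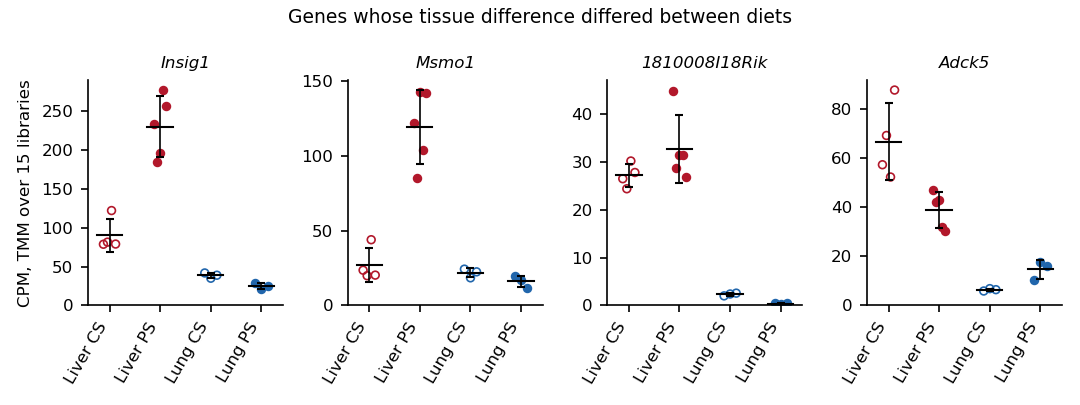
Level in CPM (TMM over 15 libraries, linear axis from 0) of the 4 genes whose tissue difference differed between diets, 1 point per library, with the mean and SD of each group. For Insig1 and Msmo1 the 5 PS livers lie above the 4 CS livers, and for Adck5 the 3 PS lungs lie above the 3 CS lungs.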

How the data were processed

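RNA-seq of liver and lung of male C57BL/6J mice was analysed. Per the submitters' processing notes and the methods, the authors aligned reads to mm10 with HISAT2 2.0.5 and counted fragments per gene with featureCounts 1.5.0-p3, and deposited raw counts per gene and library, 1 table per tissue. The strand setting and the release of the gene models are not given in the sources used here. Opposite-strand genes cover 11.2% to 27.2% of the exonic bases of Alas2, Bdh1, Dbp, Fdft1, Hmgcs1, Hopx, Lipe, Oxct1, Scap and Slc27a2, a same-strand gene covers 12.1% of those of Tm7sf2, and Acaca matches Gm5182 at 99.2% over 6118 bases, so their counts may hold reads of those genes. Deposited tables of normalized values (FPKM) were made per tissue and were not used, nor were results of the authors' own comparisons.

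Both count tables were joined by gene identifier (54532 genes). The 3 PS lungs were compared with the 5 PS livers with edgeR 4.0.16 in R 4.3.3 (TMM, filterByExpr, robust quasi-likelihood fit). Adjusted p-values are Benjamini-Hochberg values over all genes tested, for the test against a 2-fold difference (glmTreat) unless named otherwise, and ± after a log2 difference is the SE. The tissue by diet interaction used the 15 libraries and the test against no difference. Pairs came from the mouse codes of the labels: same-mouse deviations correlated at -0.058, 0.036 and 0.083, and mouse as a block was an alternative on the 3 mice with both tissues. DESeq2 1.42.0 was another. The tests were first run on simulated counts with known changes. No 2 libraries agreed within sampling noise (chi-square per gene at least 22.1).

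Members and lists were chosen with earlier results of these data known. Named genes were list genes, the 8 protein-coding genes of at least 100 CPM with the largest called difference in each direction, and up to 5 protein-coding genes per direction with a called interaction. Single values of some listed genes are not reported here, though they enter counts and medians.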

Additional observations from a re-analysis of the deposited data

Results flagged for a closer look

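The results of 4 genes stood out because the lung minus liver difference itself differed between the diets in the edgeR quasi-likelihood test of the interaction. On PS it was more negative for Insig1 (-1.98 on the log2 scale, adjusted p = 0.0296), Msmo1 (-2.58, adjusted p = 0.0296) and 1810008I18Rik (-2.75, adjusted p = 0.0136), and more positive for Adck5 (1.98, adjusted p = 0.0498). None of these calls was kept with mouse as a block over 6 mice, where the changes were -1.84, -2.66, -2.75 and 1.85 (adjusted p 0.271 to 0.695).

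In 13 of 152 named genes 1 of the 5 PS livers stood apart from the other 4, its gap to the nearest being more than 0.71 of the whole range. Normally distributed values pass this cutoff about 1 time in 20. That rate does not hold for genes at 0 in the other livers, where a single count makes the gap the whole range, so it is no yardstick for the 13. The levels here are scaled over the 8 PS libraries. The liver of PS04 was the highest for Abcg5 (139 CPM), 1810008I18Rik (42.9 CPM), Ear2 (6.63 CPM), Cpt1c (3.53 CPM) and Scgb1a1 (0.321 CPM, all other livers at 0). The liver of PS05 was the highest for Bdh1 (439 CPM), Jchain (24.6 CPM), Chil3 (0.482 CPM) and Sftpb (0.0803 CPM, all other livers at 0). The liver of PS09 was the highest for Adipoq (0.325 CPM), that of PS11 for Abcb11 (543 CPM) and that of PS15 for Npc1l1 (0.0924 CPM from 1 count, all other livers at 0), and the liver of PS15 was the lowest for Rxrb (31.6 CPM).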

How the results depend on the processing

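Total-count scaling and the stricter filter on low counts moved the tissue comparison most. With total-count scaling 11409 genes were higher and 2305 lower in lung at an adjusted p under 0.05 (6468 and 5240 with TMM), or 83.2% and 16.8% of the calls against 55.2% and 44.8%, and 8674 and 1673 over 2-fold (4756 and 3192 with TMM). Requiring 10 counts in every library, 3739 genes were higher, and 1798 over 2-fold higher and 1779 over 2-fold lower, of 10963 tested. With single libraries left out, 6087 to 6636 were higher and 4802 to 5340 lower, and 4557 to 4898 and 3013 to 3188 over 2-fold. With mouse as a block on 3 mice 5957 were higher and 4354 lower, and 4439 and 2712 over 2-fold, against 6249, 4565, 4622 and 2782 in the same 6 libraries without the block. Of the 2-fold calls of named genes, 9 differed between the blocked fit and that of the 8 libraries, 8 of them (Abca3, Adck5, Cd36, Cpt1c, Fabp4, Idi1, Pdk4 and Rora) also without the block (Adck5 -1.34 with it, adjusted p = 0.0818, and -1.32 without, 0.0812). Between blocked and unblocked fits of the 6 libraries, Abca1 and Gm21320 (adjusted p = 0.133 without the block) changed calls and no other named gene did. For the interaction, the more positive and more negative genes (1 and 3 with edgeR, TMM and the filter) were 2 and 8 with no filter, 94 and 139 with DESeq2's Wald test, 0 and 0 with the block, and 0 to 3 and 0 to 9 with single libraries left out. They were 2 and 3 with 10 counts in every library. The difference from DESeq2 was not tested for its cause.

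With total-count scaling 22 named genes went from a negative to a positive sign: Adgre1 (1.30), Per3 (0.81), Acaca (0.32), Acly (0.44), Adck5 (0.01), Ciart (1.30), Clock (1.15), Cry2 (0.94), Dgat1 (0.52), Lipg (1.12), Mbtps1 (1.30), Mvd (0.50), Mvk (0.73), Nr1h2 (1.34), Pcyt1a (0.09), Per2 (0.17), Plin3 (1.11), Pparg (0.44), Rxrb (1.21), Srebf1 (0.36), Srebf2 (1.18) and Tef (0.42). Of the 2-fold calls of named genes, Abca1, Acadl, Adck5, Alas2, Chpt1, Elovl5, Fasn, Fdft1, Idi1, Npc1, Nr1d1, Nr1d2, Nr1h3, Rora, Scap, Scarb1, Sqle and Stard4 lost theirs with that scaling. Toward lung, Abca3, Arntl, Cd36, Cd68, Chka, Cry1, Csnk1d, Gramd1a, Mbtps1, Mbtps2, Nr1h2, Pdk4, Per1, Pmvk and Ppard gained one. Cfd, at 3.02, ranged from -7.96 (without the lung of PS04) to 3.61 with single libraries left out. With DESeq2's test against a 2-fold difference 9 of 155 named genes lost the call, namely Adck5, Cpt1c, Fabp4, Fasn, Idi1, Mylip, Nr1d2, Rora and Sqle. Idi1, Fabp4 and Gm21320 lost it with no filter (adjusted p = 0.0861, 0.149 and 0.0505) and Sqle with upper quartile scaling or 10 counts in every library (0.0585 and 0.0782). Gramd1a gained it under both of these (0.0294 and 0.0423) and Cd36 with upper quartile scaling (0.0358). Of 2691 pairs of a result for a named gene and an alternative, 2522 kept their side of the threshold, 123 lost the call, 25 gained it and 21 turned sign with an adjusted p under 0.05 against no difference in at least 1 of the fits. Of the 21, 20 did so with total-count scaling, Adck5 among them, and the other was Cfd without the lung of PS04 (adjusted p = 9.43e-04 against a 2-fold difference). Depth limits genes near 0 in a tissue, whose fitted differences depend on a few counts.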

Other observations

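Resident immune and vessel cells of the 2 organs left their own marks on the PS comparison. Of 12 macrophage markers 5 were over 2-fold lower in lung, 3 of them under all 4 scalings, and 3 over 2-fold higher. Clec4f, a lectin of Kupffer cells, was at 54.5, 79.8, 46.3, 77.1 and 95.3 CPM in the livers and 0.0667, 0 and 0.0291 CPM in the lungs. Cd5l, secreted by liver macrophages, was at 26.96, 62.4, 17.4, 73.7 and 90.95 CPM in the livers and 0.0667, 0.214 and 0.117 CPM in the lungs, with PS04 and PS09 the lowest livers. Chil3, abundant in alveolar macrophages, was at 0, 0.482, 0, 0 and 0.0924 CPM in the livers and 152, 178 and 108 CPM in the lungs. Siglecf and Ear2, further markers of that cell, were over 2-fold higher in lung (6.26 ± 0.67 and 3.84 ± 0.54), while the general markers Adgre1 and Cd68 overlapped between tissues (-0.01 ± 0.59 and 0.28 ± 0.40). Marco, a further macrophage marker of the list, went the other way, with means of 12.998 CPM in PS livers and 2.50 CPM in PS lungs (scaling over 15 libraries). Of 6 sinusoidal endothelium markers 3 were over 2-fold lower in lung under all 4 scalings (Stab2, Clec4g and Oit3) and Lyve1, which also marks lymphatic vessels, was higher, at 2.25, 4.09, 3.17, 6.50 and 14.2 CPM in the livers and 206, 182 and 234 CPM in the lungs. All 9 lung endothelium markers were over 2-fold higher in lung, among them Car4, a carbonic anhydrase of alveolar capillaries, which had no count in the livers and 135, 105 and 144 CPM in the lungs, at least 2453-fold higher.

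Lymphoid cells and airway cells were on the lung side. All 8 B and plasma cell markers were over 2-fold higher in lung, with Jchain, the joining chain of secreted antibodies, at 13.5, 24.6, 15.99, 15.8 and 15.3 CPM in the livers and 795, 911 and 677 CPM in the lungs. Of 7 T cell markers 5 were over 2-fold higher in lung, with Lck, a kinase of the T cell receptor, at 1.07, 1.36, 0.406, 1.35 and 1.57 CPM in the livers and 8.68, 11.3 and 10.6 CPM in the lungs. All 6 ciliated airway markers were over 2-fold higher, and Foxj1, the factor that drives motile cilia, was at 0, 0.642, 0.568, 0.0793 and 0.185 CPM in the livers and 99.97, 26.6 and 60.6 CPM in the lungs, lowest in the lung of PS09. Of 6 red cell markers 4 were over 2-fold higher in lung, whereas Alas2, which starts heme synthesis in red cell precursors, was over 2-fold lower, at 51.7, 48.1, 38.8, 93.5 and 69.4 CPM in the livers and 18.9, 12.9 and 9.30 CPM in the lungs (-2.14 ± 0.32, and -0.84 without a 2-fold call with total-count scaling). The alpha globin genes Hba-a1 and Hba-a2 are near-identical copies, so their single values are not given.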
